A study of Mus musculus with 32 samples.

Results

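The genes of the glutamate, GABA and glycine receptors were followed in mouse embryonic stem cells (mESCs), in 1 library of WT cells and 1 of cells labelled as lacking the Polycomb subunit Eed. Members were taken by gene symbol alone, as every listed symbol of the families Gria, Grid, Grik, Grin, Grm, Gabr, Gabbr and Glr with a subunit letter or number. No measured value entered this rule, but the members were chosen with earlier results of these data known. The rule gave 52 of the 24028 symbols, of which 26 encode glutamate receptor subunits, 21 encode GABA receptor subunits and 5 encode glycine receptor subunits. Both RNA-seq libraries, with the genotype labels WT and Eed -/-, were given the strain label TT2 and came from cells grown in serum with leukemia inhibitory factor on gelatin. For Eed-/- samples of other assays of the series the labels name another line, and the sources used here do not state which Eed mutation the RNA-seq cells carried. With 1 library per genotype there was no replicate check, so no p-value is given. Intervals on a ratio are exact 95% intervals for counting error only.

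Glutamate is the main excitatory transmitter of the brain, while GABA and glycine are the main inhibitory ones. AMPA, kainate, NMDA and delta subunits (Gria, Grik, Grin, Grid) belong to the ionotropic glutamate receptor family, whereas GABA-A, rho and glycine receptor subunits (Gabr, Glr) assemble into chloride channels. Metabotropic glutamate receptors (Grm) and GABA-B receptors (Gabbr) signal through G proteins. Most of these genes are known from neurons, and in cells outside the nervous system many neuronal genes are held silent by the repressor Rest or, at promoters rich in CG, by Polycomb, whose complex 2 needs Eed to methylate lysine 27 of histone H3.

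Levels were FPKM, a fragment number divided by transcript length and by sequencing depth, so values of different genes are compared per length. From the steps between low FPKM values the libraries held about 7220000 (WT) and 6440000 (Eed-/-) fragments, and 1 fragment on a transcript of 3 kb was worth an FPKM of 0.0491 and 0.0551. The Eed transcript itself was not reduced, with an FPKM of 63.0 in WT against 70.9 in the library labelled Eed-/-. The transcript level does not show whether Eed protein was made. The study reports the loss of Eed in its Eed-/- cells from western blots and ChIP-seq of H3K27me3, which were not analysed here. X chromosome genes were higher in the library labelled Eed-/- as a group, with a median difference of 0.46 in log2(FPKM + 1) over 518 genes, while those of chromosomes 1 and 8 were lower, with medians of -0.29 and -0.38. Pluripotency markers were at FPKM 1 or above in both libraries for 10 of 10 genes. Their median difference was 0.51, with 8 above 0 and 2 below. The 1 at least 2-fold higher was Zfp42, with 131 and 272 (10%, against 3.80% of all symbols), and 0 were lower by that much. Among 16 neuron markers 13 passed the filter on low values, with a median difference of 0.36, 10 above 0 and 3 below. Of these, 1 was at least 2-fold higher and 1 at least 2-fold lower (7.69% each, against 3.80% and 3.98% of all symbols). The summed FPKM of the 16 was 214 (WT) and 193 (labelled Eed-/-), mostly from Tubb3, with 95.4 and 74.0, and Stmn2, with 80.2 and 68.9. The 1 at least 2-fold higher was Nefm, a neurofilament gene, from an FPKM of 0.635 to 3.61. The 1 at least 2-fold lower was Ina, from 11.1 to 3.36. Dcx, a marker of young neurons, was listed at 0 in both. Rbfox3, a marker of mature neurons, went from 1.05 to 0.425, a difference of -0.51, short of 2-fold. The summed FPKM of 9 primitive endoderm markers was 15.6 and 57.2. Most of it came from Lama1, with 8.25 and 33.5, and Col4a1, with 5.62 and 19.1, both called higher. Of the 9, 8 passed the filter, and all 8 were above 0, with a median difference of 0.63. The 2 called higher were 25% of the 8, against 3.80% of all symbols. The summed FPKM of 8 neural progenitor markers was 17.2 and 24.1. Most of it came from Olig2, with 7.23 and 11.2, and Nes, with 6.97 and 10.8, while Neurog2, Fabp7 and Hes5 were at 0. Of the 8, 4 passed the filter, 3 above 0 and 1 below, with a median difference of 0.37 and 0 called in either direction. For 5 astrocyte markers the summed FPKM was 1.52 and 1.36, with Aqp4 and S100b at 0. For 8 fibroblast markers it was 58.7 and 40.7, mostly from Fn1, with 55.9 and 33.5, and Dcn was at 0. Of the 4 fibroblast markers that passed the filter, 1 was above 0 and 3 were below, with a median difference of -0.44. The 1 above 0 was Thy1, called higher (25% of the 4, against 3.80% of all symbols), with 0.976 and 6.97. In bulk RNA, fewer cells of a type and less RNA per cell cannot be told apart, and the part of these marker levels in the receptor results was not tested.

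Receptor genes sat low in these cells. An FPKM of at least 1 was reached by 3 of 52 members in WT (5.77%, against 44.6% of all symbols) and by 4 in the library labelled Eed-/- (7.69%, against 44.3%), and 47 of 52 were under 1 in both. The members' summed FPKM was 13.6 (WT) and 17.2 (labelled Eed-/-).

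Members split by detection into 20 genes listed at 0 in both libraries (38.5%, against 30.0% of all symbols), 8 listed at 0 in WT only (15.4%, against 4.85%), 1 listed at 0 in the library labelled Eed-/- only (1.92%, against 4.31%) and 23 above 0 in both. The shares over all symbols include many highly expressed genes, which these shares do not adjust for. Some values of 0 may be failed estimates, and a count of 3 fragments, the number that a count of 0 still allows, equals an FPKM of 0.147 in WT on 3 kb. Those at 0 in both included the AMPA genes Gria1 and Gria2, the NMDA gene Grin2a, the metabotropic genes Grm6, Grm7 and Grm8, the GABA-A genes Gabra2, Gabra6, Gabrb1, Gabrd, Gabrg3 and Gabrq, the rho genes Gabrr2 and Gabrr3, and the glycine receptor genes Glra1, Glra2 and Glra3. Several of these encode the main subunits of adult brain synapses, such as Gria1 and Gria2 of AMPA receptors and Glra1 of spinal glycine receptors. The 8 genes at 0 in WT only, among them Gabbr2, Gabrb2, Gabre, Gabrg1, Gabrr1, Grik1 and Grin2b, rested on 1 to 5 fragments each in the library labelled Eed-/-, the shallower of the libraries. Grm3, the gene at 0 in the library labelled Eed-/- only, rested on 1 fragment in WT.

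**Figure D1:**
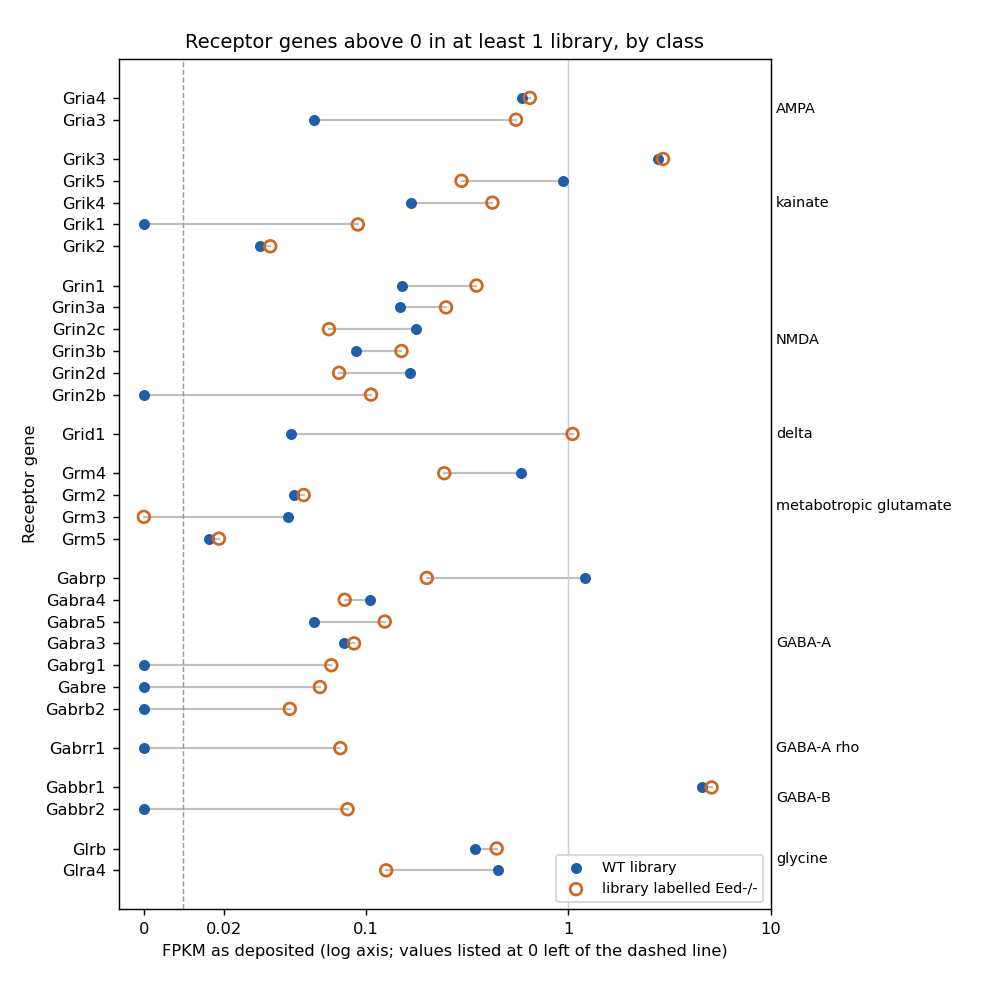
Deposited FPKM (log axis) of 30 receptor genes above 0 in at least 1 library, grouped by receptor class, with WT as filled points and the library labelled Eed-/- as open circles joined by a line for each gene. Gabbr1 and Grik3 sit at the right with both libraries close together, while Grid1 and Gria3 are joined by long lines with the open circle on the right.

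Changes between the libraries were measured as the difference in log2(FPKM + 1) after quantile normalization, and a gene was called from a 2-fold difference on this scale. Of 17 members whose normalized FPKM averaged 0.1 or more, 1 was called higher in the library labelled Eed-/- (5.88%, against 3.80% of 14835 symbols) and 0 lower (against 3.98%). Without normalization 3.07% of all symbols were called higher and 5.40% lower, with a median difference of -0.09, and the direction of each of the 17 members was the same. No test was possible on these calls. The median difference of the 17 was 0.11, with 11 above 0 and 6 below, and over all symbols that passed it was 0.009. Among the 23 members above 0 in both libraries, the counting interval of the FPKM ratio lay above 1 for 3 (13.0%, against 17.5% of 13278 symbols), below 1 for 2 (8.70%, against 30.3%) and held 1 for 18. Most members were too shallow for a narrow interval, with a median of 6 fragments in WT where the 13278 symbols had 98.

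**Figure D2:**
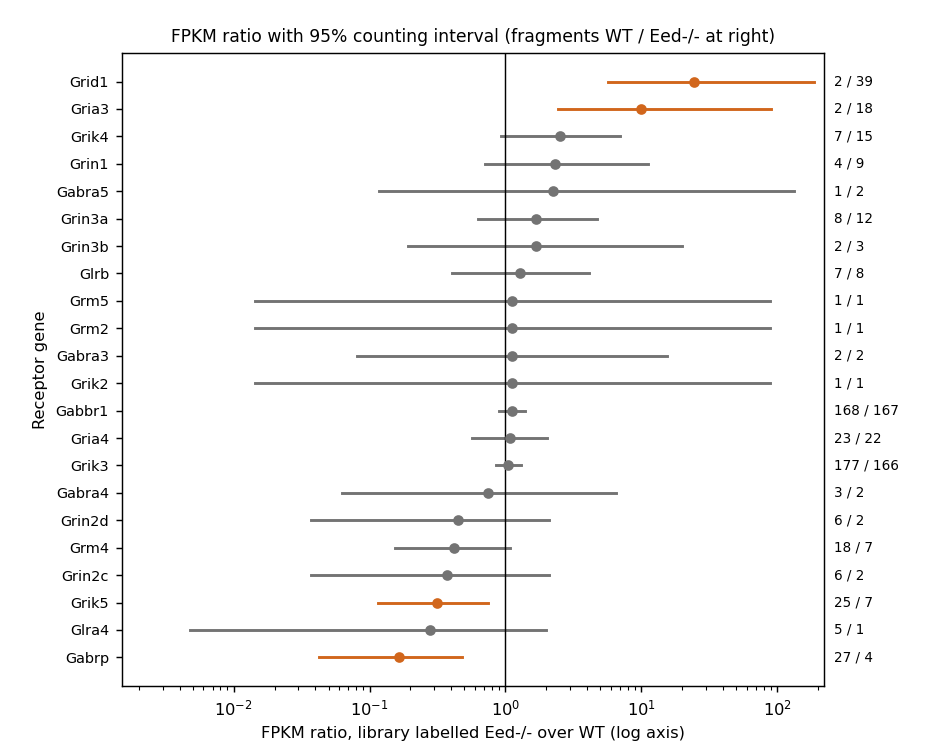
FPKM ratio of the library labelled Eed-/- over WT (log axis) for 22 receptor genes above 0 in both libraries, with exact 95% counting intervals as bars and the fragments of each library at the right. Intervals that leave out 1 are in orange, for Grid1 and Gria3 above 1 and Grik5 and Gabrp below 1.

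GABA-B receptors need both of their subunits at the cell surface. Gabbr1 (ENSMUSG00000024462, chr17:37182911-37212012, plus strand, mm9), which encodes the subunit that binds GABA, had the highest level of all members, with an FPKM of 4.6 in WT against 5.11 in the library labelled Eed-/-. These values rested on 168 and 167 fragments, and the ratio of 1.11 had an interval from 0.894 to 1.39. Gabbr2, whose product couples to the G protein and carries the receptor to the surface, was listed at 0 in WT and at 0.0812 in the library labelled Eed-/-, from 3 fragments. The GABA-binding subunit was thus detected in both libraries and its obligate partner at the limit of detection in 1 of them.

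Among GABA-A genes, Gabrp (ENSMUSG00000020159, chr11:33450781-33478959, minus strand, mm9) was higher in WT. It encodes the pi subunit, which is known mainly from epithelia outside the nervous system such as the uterus. Its FPKM was 1.21 in WT against 0.200 in the library labelled Eed-/-, from 27 and 4 fragments, a ratio of 0.166 with an interval from 0.0422 to 0.477. On the log2(FPKM + 1) scale it differed by -0.87, short of the 2-fold limit. Of the alpha subunit genes, which form the GABA binding site together with a beta subunit, Gabra2 and Gabra6 were at 0 in both libraries, and Gabra3, Gabra4 and Gabra5 had 1 to 3 fragments in each library. The highest alpha subunit value in the library labelled Eed-/- was an FPKM of 0.124, for Gabra5. Of the rho genes, known from the retina, only Gabrr1 was above 0, with an FPKM of 0.0748 from 1 fragment in the library labelled Eed-/-.

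Most GABA-A genes lie in clusters, but Gabrp and Gabrd do not. In the clusters of 4 genes on chromosome 5 (Gabrg1, Gabra2, Gabra4, Gabrb1) and of 3 genes on the X chromosome (Gabre, Gabra3, Gabrq), no gene had more than 3 fragments in a library.

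Among ionotropic glutamate receptors, the kainate class was the highest, through Grik3 (ENSMUSG00000001985, chr4:125167944-125391417, plus strand, mm9). Grik3 encodes a subunit that can form kainate receptors by itself. Its FPKM was 2.78 (WT) and 2.94 (labelled Eed-/-), from 177 and 166 fragments, and the ratio of 1.05 had an interval from 0.846 to 1.31. Grik5 (ENSMUSG00000003378, chr7:25794872-25857388, minus strand, mm9), which encodes a high-affinity subunit that works only with a partner such as the product of Grik3, was lower, at an FPKM of 0.946 in WT against 0.297 in the library labelled Eed-/-. This rested on 25 and 7 fragments, a ratio of 0.313 with an interval from 0.115 to 0.747 and a difference of -0.57 in log2(FPKM + 1). Grik4, which encodes the other high-affinity subunit, pointed the opposite way, with 0.167 (WT) and 0.422 (labelled Eed-/-), but its interval, from 0.922 to 6.97, held 1. Grik2 had 1 fragment in each library, and Grik1 had 2 in the library labelled Eed-/- alone. The summed FPKM of the kainate class was 3.93 and 3.78, and without Grik3 it was 1.14 and 0.843.

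Of the AMPA genes, which encode the subunits of fast excitatory synapses, Gria4 and Gria3 were above 0. Gria4 was near the same level in both libraries, at an FPKM of 0.592 in WT against 0.646 in the library labelled Eed-/-, with an interval of the ratio from 0.570 to 2.01. Gria3 (ENSMUSG00000001986, chrX:38754031-39031778, plus strand, mm9) had 0.0552 (WT) and 0.552 (labelled Eed-/-), from 2 and 18 fragments. Its ratio was 9.99 with an interval from 2.42 to 89.7, and its difference in log2(FPKM + 1) was 0.56. Gria3 lies on the X chromosome, where 78 of 518 genes were called higher and 6 lower. The next gene after it, Thoc2, a subunit of an mRNA export complex, had an FPKM of 9.03 in WT against 17.4 in the library labelled Eed-/-, so that its difference of 1.03 also passed the limit. Gene and chromosome cannot be told apart for Gria3 in these libraries.

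Grid1 (ENSMUSG00000041078, chr14:35633011-36396565, plus strand, mm9) had the largest ratio of all members. It encodes a delta subunit, a synaptic organizer that binds cerebellins and does not respond to glutamate like its relatives. The FPKM was 0.0426 (WT) and 1.05 (labelled Eed-/-), from 2 and 39 fragments. Its ratio was 24.6 with an interval from 5.66 to 187, and its difference of 0.98 in log2(FPKM + 1) fell just short of 2-fold. The gene before it, Wapal, a regulator of cohesin release, had an FPKM of 53.1 in WT against 42.3 in the library labelled Eed-/-, and Mir346, which lies inside Grid1, was listed at 0 in both.

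NMDA receptors need Grin1, which encodes the obligate subunit that binds glycine, together with subunits of the Grin2 or Grin3 groups. Grin1 had an FPKM of 0.151 (WT) and 0.352 (labelled Eed-/-), from 4 and 9 fragments, and the ratio of 2.33 had an interval from 0.704 to 11.2. Grin2c and Grin2d, glutamate-binding subunits, each had 6 fragments in WT against 2 in the library labelled Eed-/-, while Grin2b, the main such subunit of the young brain, was listed at 0 in WT and had 5. Grin3a had 8 and 12 fragments and Grin3b 2 and 3. No NMDA member with fragments in both libraries had an interval that left out 1, and the summed FPKM of the class was 0.730 (WT) and 0.996 (labelled Eed-/-).

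Of the metabotropic glutamate receptor genes, 4 of 8 were above 0 in WT. Grm4, which encodes a presynaptic receptor that dampens transmitter release, held 85.1% of their summed FPKM in WT. Its FPKM was 0.582 in WT against 0.244 in the library labelled Eed-/-, from 18 and 7 fragments, a ratio of 0.420 with an interval from 0.154 to 1.09, which held 1. Grm2 and Grm5 had 1 fragment in each library. The class sum of 0.684 (WT) and 0.312 (labelled Eed-/-) therefore rested on Grm4.

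Glycine receptor genes showed the same low range. Glrb encodes the beta subunit that ties glycine receptors to the scaffold gephyrin. Its FPKM was 0.346 in WT against 0.443 in the library labelled Eed-/-, from 7 and 8 fragments, and the interval of the ratio ran from 0.406 to 4.15. Glra4, an alpha subunit gene on the X chromosome, had 0.448 and 0.126, from 5 and 1 fragments, with an interval from 0.00474 to 2.00. Against the direction of most X genes it was lower in the library labelled Eed-/-, but its interval held 1. BC065397, annotated on the other strand across Glra4, had an FPKM of 2.41 and 1.63, and whether the counting used the strand is not given in the sources used here.

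Promoters were then described by their CG content, since Polycomb in mESCs is known mainly from promoters rich in CG. RefSeq promoter windows of 300 bases, from 250 before to 50 after the gene start in GRCm38.p6, matched 36 of 52 members with 43 windows. Members with an interval of the FPKM ratio above 1, such as Grid1 and Gria3, had no window, so they are not covered here. The median of the member windows was 11 CG dinucleotides, against 7 over all 32851 windows. Of member windows 32.6% held 20 or more, against 26.5% of all. By the richest window of each gene, the 13 members at 0 in both libraries and the 23 above 0 in a library both had a median of 13. The 250 bases before the start are shown for 4 members, none with an interval above 1, with each CG in capitals. Grik3 (chr4:125490446-125490695, plus strand) and Gabbr1 (chr17:37045716-37045965, plus strand) had the highest levels, and Grik5 (chr7:25072370-25072619, minus strand) and Gabrp (chr11:33578958-33579207, minus strand) had intervals below 1.
Grik3 promoter: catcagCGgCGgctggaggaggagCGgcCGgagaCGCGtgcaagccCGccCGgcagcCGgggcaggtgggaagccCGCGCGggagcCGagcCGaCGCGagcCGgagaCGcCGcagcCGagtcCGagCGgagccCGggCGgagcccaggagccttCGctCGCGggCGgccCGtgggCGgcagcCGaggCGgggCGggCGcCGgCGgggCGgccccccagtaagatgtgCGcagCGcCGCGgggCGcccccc
Gabbr1 promoter: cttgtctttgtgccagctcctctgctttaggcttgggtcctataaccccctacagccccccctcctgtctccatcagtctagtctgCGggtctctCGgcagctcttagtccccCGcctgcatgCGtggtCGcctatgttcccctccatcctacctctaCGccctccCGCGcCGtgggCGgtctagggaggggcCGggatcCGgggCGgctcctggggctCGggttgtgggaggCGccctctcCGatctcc
Grik5 promoter: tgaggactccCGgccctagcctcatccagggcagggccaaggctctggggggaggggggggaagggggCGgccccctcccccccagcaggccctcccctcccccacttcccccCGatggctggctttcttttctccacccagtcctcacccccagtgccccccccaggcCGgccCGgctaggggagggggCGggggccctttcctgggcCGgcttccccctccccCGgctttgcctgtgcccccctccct
Gabrp promoter: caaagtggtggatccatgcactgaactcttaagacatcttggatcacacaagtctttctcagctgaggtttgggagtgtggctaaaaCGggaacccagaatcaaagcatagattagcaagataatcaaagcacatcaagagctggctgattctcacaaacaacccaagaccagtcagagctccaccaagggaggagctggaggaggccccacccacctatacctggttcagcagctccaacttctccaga

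These promoters differed widely in CG content. Grik3 held 42 CG in the 250 bases shown and 50 in the window of 300, more than 99.1% of all promoters. Gabbr1 held 18 in its window and Grik5 held 10, while Gabrp, with 4, had fewer than the median promoter. The pieces of the Rest motif CAGCACC and GGACAGC were looked for on both strands, and the first was in 4.65% of member windows (Gabrq and Grm2) against 7.14% of all, the second in 9.30% (Glra2, Glrb, Gria2 and Grm2) against 6.56%. The TATA box TATAAA was in 11.6% of member windows against 13.6%. These letters lie in a window near the start only, and Rest sites farther away were not searched.

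**Figure D3:**
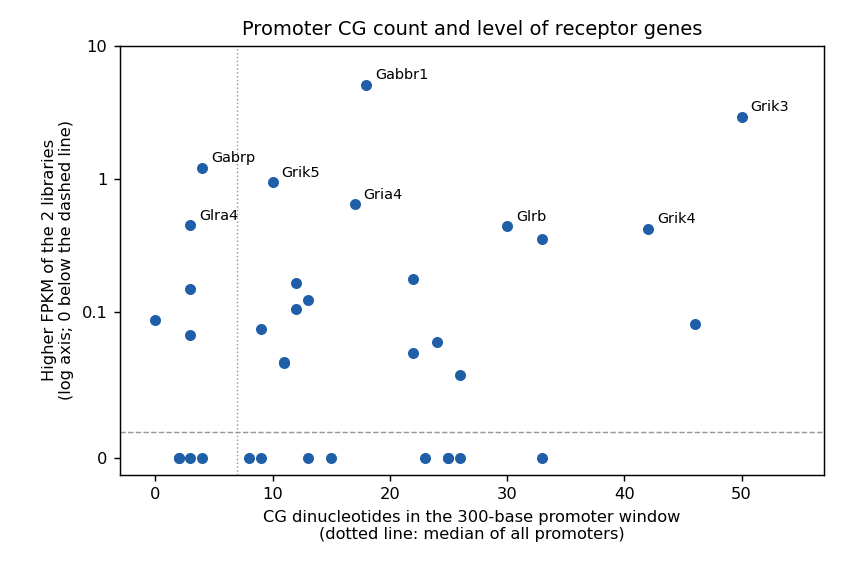
Number of CG dinucleotides in the 300-base promoter window (horizontal axis) and the higher FPKM of the libraries (vertical, log axis, with 0 below the dashed line) for the 36 receptor genes with a promoter in the table, each point a gene with its richest window. Genes at 0 span windows from 2 to 33 CG, and Grik3 with 50 and Gabrp with 4 are both among the higher genes.

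Other genes that receptors work with were described by lists of known roles. Calls in these lists are to be read beside those of all symbols that passed the filter, 3.80% higher and 3.98% lower. Of 17 auxiliary subunit genes of AMPA and kainate receptors 8 passed the filter, with a median difference of 0.13. Of these, 0 were called higher and 2 lower (25%, against 3.98% of all symbols). Both are AMPA receptor partners, Cacng7 with an FPKM of 4.86 in WT against 1.67 in the library labelled Eed-/-, a difference of -1.05 in log2(FPKM + 1), and Cnih2 with 2.84 and 0.665, a difference of -1.16. Of the 4 Kctd auxiliary subunit genes of GABA-B receptors 3 passed and none was called in either direction. Of 27 genes listed as receptor scaffolds and clustering proteins 23 passed and 0 were called, with a median of 0.04. From this list Gabarap, which binds GABA-A receptors, and Nsf, which acts in receptor recycling, were high without being specific to neurons. They stood at 47.6 and 35.8 in WT and 42.9 and 46.7 in the library labelled Eed-/-. The median FPKM of the 27 genes was 1.06 in WT against 0.669 in the library labelled Eed-/-, both values of Shank3, and 13 of them were under 1 in both. Their summed FPKM was 164 in each library. Of the 23 that passed, 15 had a difference above 0 and 8 below.

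Transmitter transporters clear glutamate, GABA and glycine from the synapse or load them into vesicles. Of 16 genes 9 passed, 2 were called higher (22.2%, against 3.80% of all symbols) and 0 lower, with a median of 0.21. Slc1a1, a glutamate transporter also found outside the nervous system, was called higher, with an FPKM of 0.196 in WT against 1.84 in the library labelled Eed-/-, a ratio of 9.40 with an interval from 3.83 to 31.2. Slc6a6, the taurine transporter, was the highest of the list with 19.7 (WT) and 33.6 (labelled Eed-/-). The vesicular glutamate transporter Slc17a6 and the neuronal glycine transporter Slc6a5 were at 0 in both libraries.

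Of 10 genes of transmitter synthesis and breakdown 9 passed and 0 were called in either direction, with a median of -0.33. Glul, glutamine synthetase, was the highest, with an FPKM of 141 in WT against 71.2 in the library labelled Eed-/- (-0.72), and it lies on chromosome 1. Gad1 and Gad2, which make GABA, were low, with 0.136 (WT) and 0.457 (labelled Eed-/-) for Gad1 and 0 and 0.0854 for Gad2. Gad1 rested on 3 and 9 fragments, and its interval, from 0.839 to 19.3, held 1, while Gad2 rested on 0 and 3. Abat, which breaks GABA down, had 1.36 and 0.289 (-0.86), from 44 and 8 fragments, a ratio of 0.213 with an interval from 0.0829 to 0.438. Of 7 chloride transporter genes, some of which set whether GABA excites or inhibits, 5 passed, 0 were called higher and 1 lower. It was Slc12a4, on chromosome 8, with an FPKM of 23.2 and 8.59, while Slc12a2, which loads cells with chloride, had 9.29 and 15.5, and Slc12a5, the neuronal chloride exporter, had 0.332 and 0.371. Of 10 genes of the Rest complex and of RNA editing 9 passed, 0 were called higher and 1 lower, namely Rcor1, a Rest corepressor, with 7.18 in WT against 2.07 in the library labelled Eed-/- (-1.32). Rest itself stood at an FPKM of 105 (WT) and 86.2 (labelled Eed-/-).

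**Figure D4:**
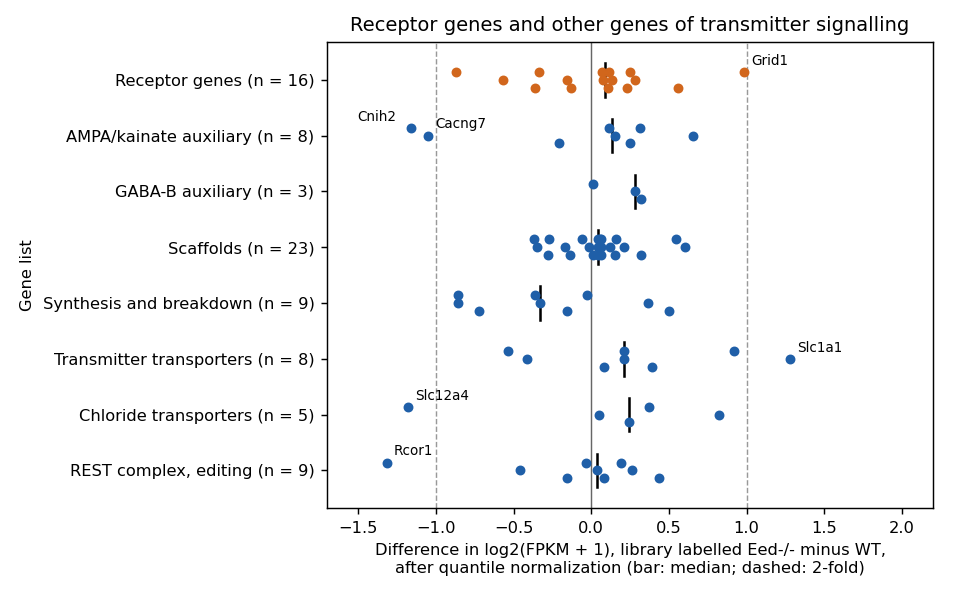
Difference in log2(FPKM + 1) between the library labelled Eed-/- and WT after quantile normalization (horizontal axis) for 16 of the 17 receptor genes that passed the filter and for 7 lists of related genes, with 1 point per gene, a black bar at the median of the points and dashed lines at 2-fold. Most points lie between the dashed lines, with Slc1a1 to their right and Cacng7, Cnih2, Slc12a4 and Rcor1 to their left.

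Other channel genes were taken for comparison. Of 92 potassium channel genes 49 passed, 1 was called higher and 0 lower, with a median of 0.06. Of 25 genes of nicotinic, serotonin and purine receptor channels 13 passed and none was called in either direction, with a median of -0.07. Called higher were thus 5.88% of receptor genes and 2.04% of potassium channel genes, 1 gene in each case, against 3.80% of all symbols. These differences were not tested.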

How the data were processed

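RNA-seq libraries were made by the authors from total RNA depleted of ribosomal RNA, with dUTP marking of the second strand. Per the submitters' processing notes, reads were processed with TopHat2 2.0.11 and Cufflinks 2.2.1 against mm9, and the deposited values are FPKM for each gene symbol. The annotation and the Cufflinks options are not given in the sources used here. Repeated symbols were added up. After quantile normalization of the 2 libraries, differences in log2(FPKM + 1) were taken for symbols whose normalized FPKM averaged 0.1 or more, with a limit of 2-fold. Fragment numbers were recovered from FPKM with the transcript length less 180 bases, where 79.7% (WT) and 80.6% (Eed-/-) of low values of genes with 1 transcript lay within 0.1 of a whole number, against 19.7% and 20.7% with lengths shuffled. For members this held for 22 of 31 low values, so such numbers are estimates for genes with more than 1 transcript. Ratios carry exact 95% Clopper-Pearson intervals conditional on the fragment total, which cover counting error only. Coordinates are from GENCODE vM1 (mm9), and promoters from RefSeq (GRCm38.p6). Scripts ran in Python 3.11.15 with numpy 2.4.6, pandas 2.3.3 and scipy 1.17.1 and were tested on simulated data. Members named with values were those with an FPKM of at least 1, those past the limit and the highest of each class, and of the other lists the highest and those past the limit; other named genes were chosen after their values were seen. The members and lists were chosen with earlier results of these data known. Other scalings, pseudocounts, filters and limits were tried. Samples of other assays were not analysed here. Some genes enter the counts and sums but are not reported here by name or drawn.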

Additional observations from a re-analysis of the deposited data

How the results depend on the processing

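The sign of the difference was the same for all 17 receptor genes that passed the filter under FPKM as deposited and under median-ratio scaling, and for the 10 named members it was the same in all 50 combinations with other settings. The number called moved with the scaling, the limit and the pseudocount. The count called higher was 1 and became 2 with median-ratio scaling (Grid1 joined, with 3.99% of all symbols called), 3 with a pseudocount of 0.1 (Gria3 also, 11.4% of all), 5 with 0.01 (Grik4 and Grin1 also, 12.9%) and 0 with a 3-fold limit (1.02%). The count called lower was 0 and became 3 with a pseudocount of 0.1 (Gabrp, Glra4 and Grik5, 12% of all) and 6 with 0.01 (Grin2c, Grin2d and Grm4 also, 13.4%). The members' median of 0.11 became 0.29 with a pseudocount of 0.1 and 0.30 with 0.01, and the median of glutamate receptor genes became 0.38 with 0.01 in place of 0.09. At a level of FPKM 0.5 in place of 1, 7 members in place of 3 counted as expressed in WT and 6 in place of 4 in the library labelled Eed-/-, so the order of the libraries turned. The summed FPKM of the kainate class was lower as deposited, with a ratio of 0.962, and higher by 0.02 on the log2 scale after quantile normalization. Without members of chromosomes 1, 8, X and Y, 15 members passed the filter and the median stayed at 0.11. Only Gria3 (0.56) and Glra4 (-0.36), both on the X chromosome, left the set. They lie on opposite sides of the median, so it could not move, and this does not check the shifts of those chromosomes. No paired analysis was possible because there was 1 library per genotype. Leaving out a replicate was not possible for the same reason. Depth also limits these results, since 11 of the 52 members had at least 10 fragments in a library.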
